A study of Mus musculus with 14 samples.

Results

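Proneural basic helix-loop-helix (bHLH) factors were examined in the H3K27me3 sites of immortalised mouse embryo fibroblasts (iMEF). The 9 genes were Neurog1, Neurog2, Neurog3, Neurod1, Neurod2, Neurod4, Neurod6, Atoh1 and Olig2, out of 21938 protein-coding genes. They were listed by name, with earlier results of these data known. For each, the sites were collected that overlapped 1 kb on either side of its annotated start sites (the start window), its body, or its body with 50 kb on either side (its surroundings). This gave 153 of the 153983 H3K27me3 sites in the list, and for each region the number of sites, their width and the share of bases covered were computed on GRCm38.

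The experiment comprised 12 H3K27me3 ChIP-seq libraries in 6 groups, namely control cells and cells exposed to dTAG for 30 min, 2 h, 4 h, 8 h or 16 h, and 2 input libraries. In all groups exon 4 of the endogenous Ash2l gene was deleted and a lentiviral construct supplied human FKBP-HA2-ASH2L, which dTAG-13 directs to degradation. The paper names the cells as NG3, a single selected clone, which limits them as a model of fibroblasts at large. With no expression values the fibroblast label could not be checked here. The site list combines all libraries and carries no value for any of them. Control and dTAG-treated cells were therefore not compared, no value below has a replicate error or a test, and the read depth behind a site is unknown. A region without a site is one that the combined list does not hold, which does not show that the mark was absent.

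Proneural bHLH factors bind E-box DNA as dimers with E proteins and commit progenitors to neuronal and other fates, while Notch signalling through Hes and Hey repressors holds them back. Some of their genes are active in progenitors and others, such as Neurod2, in maturing neurons. In cells of other lineages such developmental genes are textbook targets of Polycomb repressive complex 2, which places H3K27me3, often in broad domains around CpG-dense start sites.

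The sequences before the start sites differed widely in CpG content, which is why 5 of them are shown here, from the highest CpG count to the lowest. Each is the 250 bases before the RefSeq start (GRCm38.p6), 5′ to 3′ on the strand of the gene, with CpG dinucleotides in capitals. The first 4 lay whole within an H3K27me3 site and the last, of Neurod4, lay in none. They are Neurog1 (chr13:56252181-56252430, minus strand), Atoh1 (chr6:64728875-64729124, plus strand), Neurod2 (chr11:98329646-98329895, minus strand), Neurod6 (chr6:55681264-55681513, minus strand) and Neurod4 (chr10:130280255-130280504, minus strand).
Neurog1: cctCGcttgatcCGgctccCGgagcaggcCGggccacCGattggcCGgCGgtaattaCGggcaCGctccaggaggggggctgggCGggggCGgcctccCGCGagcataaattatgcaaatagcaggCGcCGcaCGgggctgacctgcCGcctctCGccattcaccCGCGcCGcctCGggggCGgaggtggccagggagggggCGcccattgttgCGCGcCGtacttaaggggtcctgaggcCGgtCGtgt
Atoh1: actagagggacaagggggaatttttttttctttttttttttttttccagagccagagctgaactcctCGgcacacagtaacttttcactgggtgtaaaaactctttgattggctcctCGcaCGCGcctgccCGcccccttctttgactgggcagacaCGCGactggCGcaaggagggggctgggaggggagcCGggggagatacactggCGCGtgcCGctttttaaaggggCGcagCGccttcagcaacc
Neurod2: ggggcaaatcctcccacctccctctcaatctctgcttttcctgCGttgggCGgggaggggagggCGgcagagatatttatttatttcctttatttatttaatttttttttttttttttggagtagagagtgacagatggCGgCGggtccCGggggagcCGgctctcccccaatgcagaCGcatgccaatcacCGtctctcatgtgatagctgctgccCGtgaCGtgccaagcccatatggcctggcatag
Neurod6: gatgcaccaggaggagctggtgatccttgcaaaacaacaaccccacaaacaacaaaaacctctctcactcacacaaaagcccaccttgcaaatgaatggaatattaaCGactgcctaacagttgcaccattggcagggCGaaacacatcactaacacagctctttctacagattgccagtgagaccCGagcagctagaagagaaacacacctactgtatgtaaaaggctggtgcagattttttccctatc
Neurod4: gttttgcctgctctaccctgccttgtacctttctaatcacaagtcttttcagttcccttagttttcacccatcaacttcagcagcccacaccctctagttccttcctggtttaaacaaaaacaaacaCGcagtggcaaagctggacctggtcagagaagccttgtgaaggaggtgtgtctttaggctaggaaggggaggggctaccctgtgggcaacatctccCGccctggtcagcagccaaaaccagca
The Neurog1 sequence held 29 CpGs, that of Atoh1 14, that of Neurod2 11, that of Neurod6 3 and that of Neurod4 2. In the sequences not shown, Neurod1 and Olig2 each had 22, Neurog3 had 18 and Neurog2 had 8. The median was 14 over the 9 genes and 6 over 32851 promoters, with quartiles of 2 and 16. The promoter of Neurod6 was covered whole with only 3 CpGs, close in number to the uncovered one of Neurod4. Neurod4 has another RefSeq start, farther from its annotated start, whose sequence was also uncovered but held 7 CpGs. E-boxes of the form CANNTG, which reads the same on both strands, were found before 4 of the 9 genes, against 66.2% of all promoters of this length. The form CAGCTG was found before Neurog3 only and CAGATG before Neurod2 only, against 13.0% and 14.4% of all promoters. These are letter matches, and they overlap because CAGCTG and CAGATG are cases of CANNTG.

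Sites covered the start sites of nearly all of these genes, and they were wide. Of the 9 genes, 8 had a site over the start window, against 31.5% of protein-coding genes (6912 of 21938). The start window was covered whole in 7, against 5.44%, and by 92.2% in Neurod6. The gene without a site there was Neurod4, whose nearest site ended 1751 bp upstream of its start. All 8 had a site of at least 2000 bp over the start window, against 16.1% of protein-coding genes. At 5 kb or more the count was 7 against 8.69%, and at 10 kb or more it was 6 against 3.82%. All 9 genes, Neurod4 included, had a site over the body, against 46.7%. The body was covered whole in 5 of the 9, against 2.19%, and at least 50% covered in 8, against 9.35%. These genes are short, between 1674 and 12089 bp. Among the 8835 genes no longer than Neurod4, 5.01% had a body covered whole and 32.5% a site over the body. The next longest of the 9, Neurod2, measures 4234 bp, so this background is not closely matched in length.

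**Figure D1:**
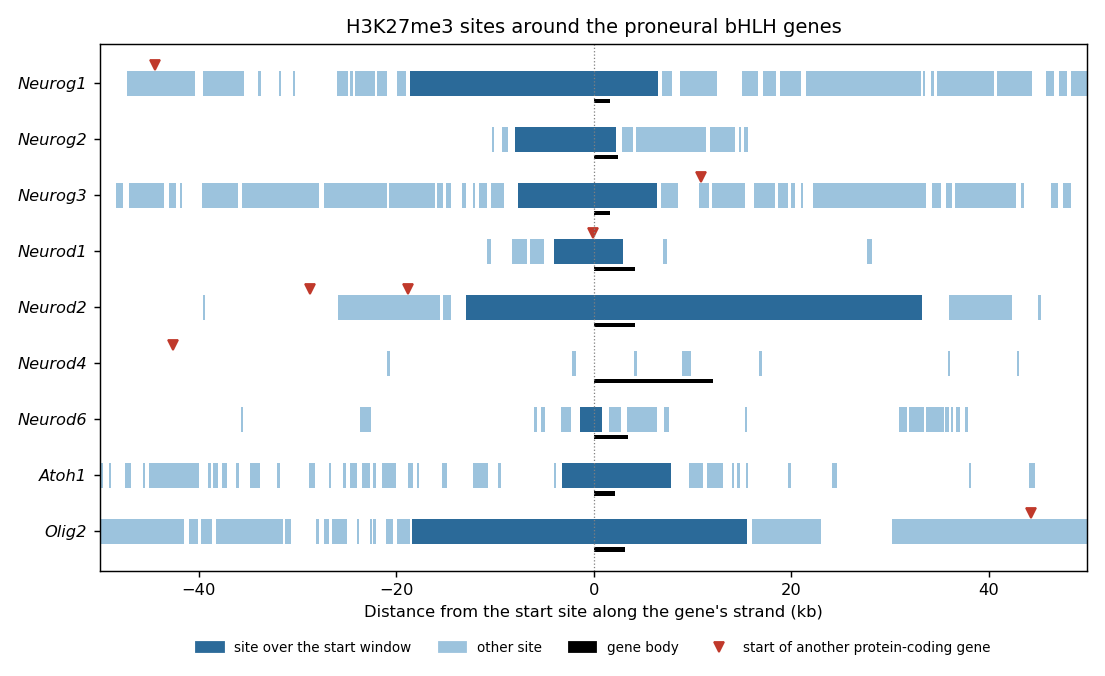
H3K27me3 sites in a span of 50 kb on either side of the start site of each of the 9 genes. The x axis gives the distance from the start site in kb, oriented so that transcription runs to the right, each row is a gene and each bar a site drawn to scale, dark where it overlaps the start window. Black lines are gene bodies and triangles the starts of other protein-coding genes. Long dark bars cross the start of Neurod2 (46227 bp) and Olig2 (33872 bp), whereas that of Neurod4 has none.

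Among the neurogenins, Neurog1 lay within the widest site. Neurog1 (chr13:56250478-56252163, minus strand) specifies sensory neurons of cranial and dorsal root ganglia. A single site of 25127 bp (chr13:56245664-56270790) covered its start window and body whole, reaching 18627 bp upstream and 6499 bp downstream of the start. Of the 153878 sites on assembled chromosomes, 179 (0.116%) were at least as wide. In its surroundings 25 sites covered 77.1% of the bases, a share that 0.57% of protein-coding genes reached. A second wide site of 11618 bp lay downstream.

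Neurog2, a driver of neurogenesis in the cortex and spinal cord, had a more limited domain. Its body (chr3:127633135-127635631, plus strand) was 90.3% covered by a site of 10200 bp (chr3:127625189-127635388) that reached 7946 bp upstream and 2253 bp downstream. Only 8 sites lay in its surroundings, covering 22.0%, and 17.2% of protein-coding genes had at least this share. Neurog2 thus matched Neurog1 in its start window but had a far smaller covered share around it.

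Neurog3 is required for the endocrine cells of the pancreas and gut. Its body (chr10:62133090-62134763, plus strand) and its start window, set around 3 annotated start sites, were covered whole by a site of 14111 bp (chr10:62125388-62139498). The surroundings held 31 sites and were 75.9% covered, close to Neurog1. Here the coverage was spread, for the widest site held 17.8% of the covered bases, the lowest share of the 9 genes.

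The Neurod genes act mostly downstream of the neurogenins in differentiating cells. With sites as listed, they covered the whole range from the widest site over a start to none. Neurod2, which acts in maturing cortical neurons, had the widest. A site of 46227 bp (chr11:98296388-98342614) covered its start window and body (chr11:98325415-98329648, minus strand) whole. Only 27 of the 153878 sites (0.0175%) were at least as wide. It reached 12966 bp upstream and 33260 bp downstream, and it held 71.9% of the covered bases in the surroundings, which had 6 sites and were 61.7% covered.

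Neurod1, a factor of neurons and of pancreatic endocrine cells, had as many sites in its surroundings, 6, but these covered 10.8%. The site over its start measured 6990 bp (chr2:79453782-79460771), and it covered the start window whole and 70.2% of the body (chr2:79452521-79456751, minus strand). A share of surroundings at least this high was found for 31.6% of protein-coding genes.

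Neurod6 marks pyramidal neurons of the forebrain, and its body was covered by several sites as listed. Its body (chr6:55677822-55681263, minus strand) was 60.4% covered by 3 sites, of 2277 bp over the start, 1216 bp (chr6:55678472-55679687) and 3024 bp lying mostly beyond the 3′ end (chr6:55674816-55677839). In the surroundings 18 sites covered 15.6%. As listed, the widest of these was not the one at the start. With sites closer than 1 kb joined, however, the 3 sites became part of a single one of 10960 bp that covered the start window and the body whole.

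Neurod4, which acts with other bHLH factors in the retina and hindbrain, was the exception. It is the longest of the 9 genes (chr10:130268152-130280240, minus strand), and its body held sites of 915 bp and 304 bp. Together they covered 10.1% of the body, and 8 sites covered 2.65% of the surroundings, below the median of all protein-coding genes of 3.81%. None of its 8 sites was wider than 915 bp.

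Atoh1 directs cerebellar granule neurons, inner ear hair cells and secretory cells of the gut. A site of 11019 bp (chr6:64725958-64736976) covered its start window and body (chr6:64729125-64731245, plus strand) whole, with 3167 bp upstream and 7851 bp downstream of the start. With sites as listed and 50 kb around the body, it had the most sites of any of the 9 genes, 34. However, 27 of them were under 1 kb wide and the surroundings were 32.8% covered, the median of the list.

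Olig2, which specifies motor neurons and oligodendrocytes, had the highest covered share of surroundings with sites as listed, though not with joins of 5 kb. Of these surroundings, 84.6% were covered by 17 sites, and 0.264% of protein-coding genes (58 of 21938) had at least this share. The site over its start measured 33872 bp (chr16:91207078-91240949), covering the start window and the body (chr16:91225457-91228677, plus strand) whole and reaching 18379 bp upstream and 15492 bp downstream. A separate site of 25573 bp lay over the neighbouring Olig1, its paralogue.

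**Figure D2:**
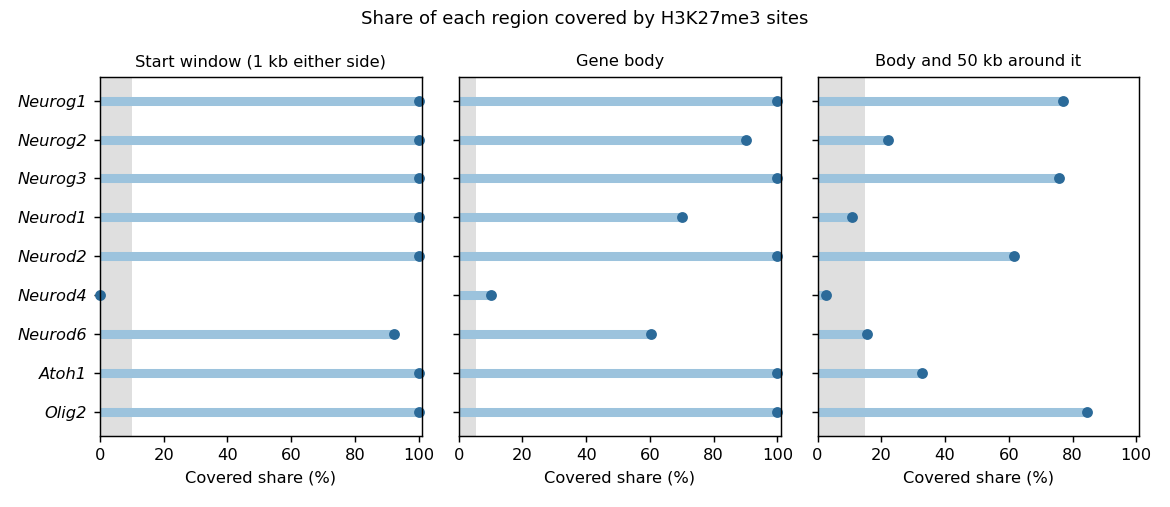
Covered share, in percent, of the start window, the body and the surroundings of the 9 genes, drawn as bars with a point at the end. Grey bands span the quartiles of all protein-coding genes, which reach 14.9% in the surroundings. There is 1 value per gene and no error, because the list combines all libraries, and the shares of the surroundings run from 2.65% (Neurod4) to 84.6% (Olig2) while 7 start windows are at 100%.

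By covered share of the surroundings the order was Olig2, Neurog1, Neurog3, Neurod2, Atoh1, Neurog2, Neurod6, Neurod1 and Neurod4. With 1 list and no replicates, it cannot be said which neighbours in this order differ. The order also depended on the settings. With 20 kb around the body, Neurod2 (96.0%) came before Neurog1 (86.3%) and Neurog3 (76.1%), Neurog2 (53.0%) before Atoh1 (43.4%), and Neurod1 (24.3%) before Neurod6 (20.8%). With sites closer than 5 kb joined, Neurog3 (98.4%) and Neurog1 (97.3%) came before Olig2 (93.0%), and Atoh1 and Neurod2 were nearly equal (68.6% and 68.5%). Neurod4 was last in both, at 3.92% and 6.68%. With sites as listed and 50 kb around the body, the median was 32.8%, against 3.81% over all protein-coding genes (quartiles 0.569% and 14.9%), and 5 of the 9 genes had at least 25% covered, against 14.6% of all. The order by number of sites was another, led by Atoh1 (34), Neurog3 (31) and Neurog1 (25), and Neurod2 had 6. It too depended on the settings. Neurog3 had more sites than Atoh1 with 20 kb (15 and 13) or 100 kb (65 and 59) around the body. The same held with only sites of at least 500 bp (24 and 15). The 153 sites had a median width of 681 bp, against 455 bp for all sites, and 23.5% of them were at least 2000 bp wide, against 11.3%. The sites over the start windows held 37.0% of the bases in the 153 sites.

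Coverage was highest next to the start and fell off on both sides. Averaged over the 9 genes, 78.7% of the 5 kb upstream of the start was covered and 80.0% of the 5 kb downstream, against 13.8% and 14.1% over all protein-coding genes. From 20 to 50 kb away the means were 30.8% upstream and 36.1% downstream, against 11.3% and 10.1%. Genes were called CpG-rich where the 500 bp to each side of the start had 50% GC or more and 0.6 or more of the CpGs expected from base composition. They had 14.1% and 11.6% in the nearest 5 kb. Within 50 kb, 3 of the 9 genes had the larger covered share upstream and 6 downstream. The sides differed most for Neurod2, with 48.7% upstream and 79.9% downstream, while Olig2 had 83.6% and 84.6%. Atoh1 leaned the other way, with 40.7% in 25 sites upstream and 26.2% in 10 sites downstream.

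**Figure D3:**
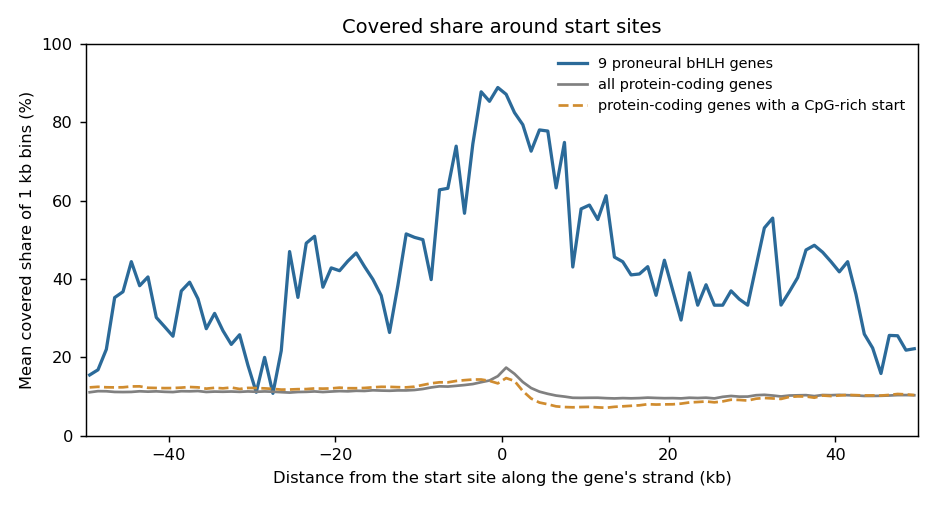
Mean share of bases covered by H3K27me3 sites, in percent, against the distance from the start site in kb, in bins of 1 kb, for the 9 genes, all protein-coding genes and CpG-rich genes. The 9 genes peak at 88.9% in the bin just upstream of the start, where all genes are at 15.2%.

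Within the genes the coding sequence was the part most evenly covered. It was covered whole in 8 genes and by 90.7% in Neurod4, so that all 9 had at least 90% of it covered, against 7.05% of protein-coding genes. All 9 genes have their coding sequence in 1 exon, and of the 3470 genes with this structure 11.8% had at least 90% covered. The 3′ untranslated regions differed more. They were covered whole in Neurog1, Neurog3, Neurod2, Atoh1 and Olig2, by 78.2% in Neurog2, by 22.7% in Neurod6 and by 12.8% in Neurod1. The intron of Neurod6 was 43.3% covered.

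Neurod4 combined an uncovered start with a covered coding sequence, a feature looked at after its values were seen. Its site of 915 bp (chr10:130270397-130271311) held 898 of the 990 coding bases, which lie in the last exon, whereas 0.752% of the 3′ untranslated region, 3.48% of the intron and none of the 5′ untranslated region were covered. Among the 15026 protein-coding genes with no site over the start window, 38 (0.253%) had at least 90% of the coding sequence covered, and with a coding sequence in 1 exon it was 16 of 2515 (0.636%). The site held 10 CpGs, or 1.09 per 100 bp, against 0.277 per 100 bp in the rest of the gene, and its GC content was 47.2% against 36.4%. The middle 300 bases of the site (chr10:130270705-130271004, minus strand, all coding), shown because this stretch of the site holds none of its 10 CpGs, are in lower case throughout.
Neurod4 coding exon: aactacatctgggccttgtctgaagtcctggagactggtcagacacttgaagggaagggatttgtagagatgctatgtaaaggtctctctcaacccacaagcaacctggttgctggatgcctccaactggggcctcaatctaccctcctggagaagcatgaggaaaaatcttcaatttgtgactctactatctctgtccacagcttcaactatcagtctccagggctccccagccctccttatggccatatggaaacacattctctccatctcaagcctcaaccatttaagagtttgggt

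**Figure D4:**
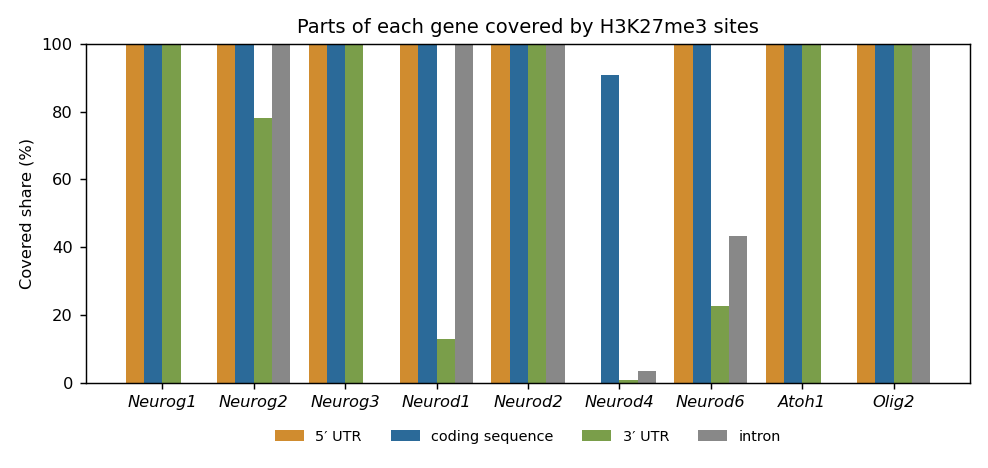
Share of the 5′ untranslated region, coding sequence, 3′ untranslated region and intron of each of the 9 genes covered by H3K27me3 sites, in percent. Neurog1, Neurog3 and Atoh1 have 1 exon and so no intron bar, and the coding sequence stands at 90.7% or more in all 9 while that of Neurod4 is flanked by parts at or near 0.

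With sites as listed, the widest and the missing site were both found at starts that were not CpG-rich. Of the 9, 5 had a CpG-rich start (Neurog1, Neurog2, Neurod1, Atoh1 and Olig2), against 44.4% of protein-coding genes. Neurod2, with the widest site, had a GC content of 59.3% but an observed-to-expected CpG ratio of 0.455, and Neurog3 had a ratio of 0.506. Neurod4 and Neurod6 had nearly the same ratio, 0.2 and 0.205, yet one had no site over its start and the other had one of 2277 bp. Across all genes, a site over the start window was found in 25.5% of CpG-rich genes and 36.3% of the others. Inside the sites CpG density was above that outside them in the surroundings of each gene. In Neurog2 it was 2.68 per 100 bp in sites and 0.867 outside, and in Olig2 the values were 1.82 and 1.78.

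**Figure D5:**
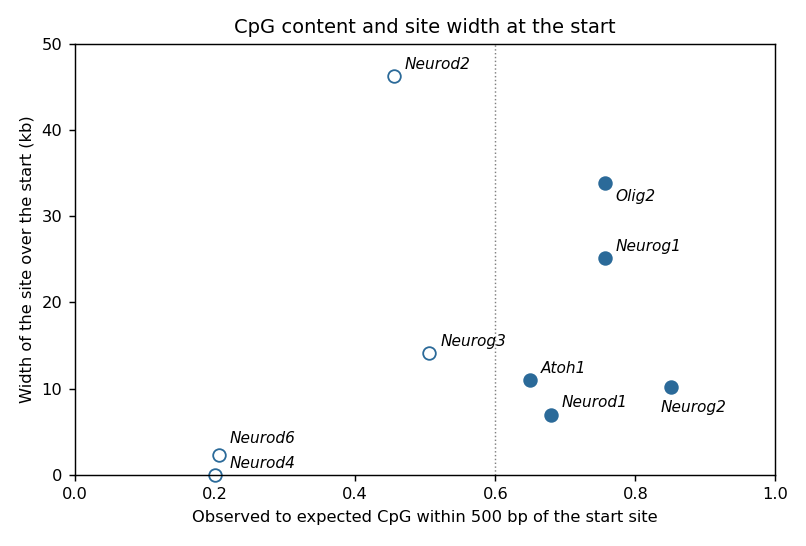
Width of the site over the start window, in kb, against the observed-to-expected CpG ratio within 500 bp of the start, with 1 point for each of the 9 genes. Filled points are CpG-rich starts, and the dotted line marks a ratio of 0.6. With sites as listed, Neurod2 (ratio 0.455) has the widest site and Neurod4, at 0 bp, lies beside Neurod6 in ratio.

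Part of the uncovered sequence consisted of short words that recur in the assembly. In the start windows, 96.4% to 100% of the words of 31 bases occurred once in the assembly, including 97.6% in Neurod4. In the surroundings the share was lowest for Neurod4, at 78.9%. Around Olig2 it was 96.6% within sites and 45.5% outside them, the widest gap of the 9 genes. Around Neurod2 the shares were nearly equal, at 94.0% and 93.8%. Longer reads may be placed where words of 31 bases recur. What part such words had in where sites were called was not tested.

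Several wide sites were shared with, or lay next to, other genes. There were 7 protein-coding start sites within 50 kb of the start of one of the 9 genes. Of these, 5 had a site over the start window, against 31.5% of protein-coding genes, and 2 shared the site of the bHLH gene itself. The shared ones were Fam241b, which overlaps Neurog3 on the opposite strand, and Cerkl, a ceramide kinase-like gene whose annotated body spans Neurod1. Cxcl14, a chemokine gene 44388 bp upstream of Neurog1, had its start window covered whole by a site of its own of 6810 bp. Ppp1r1b, which encodes the dopamine signalling protein DARPP-32, starts 18756 bp upstream of Neurod2, and its start window was 99.5% covered by a separate site of 10377 bp. Stard3, which starts farther from Neurod2 than Ppp1r1b does, and Tespa1, 42630 bp upstream of Neurod4, had none. Zgrf1, Alpk1 and Cdk12 reach into the surroundings of Neurog2 or Neurod2 with their bodies only. Of the start windows of Cerkl 17.6% was covered, and of its body 3.07%. To which of the overlapping genes a shared site belongs cannot be told apart from positions alone.

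Joining sites with gaps under 5 kb enlarged the domains unequally. That of Neurog1 came to 160886 bp from 44 sites and held the starts of Cxcl14 and Tifab, and that of Neurog3 came to 104793 bp. Olig2 reached 96193 bp from 25 sites without including Olig1. Neurod2, with the widest site as listed, came to 71191 bp, less than these 3 genes. Neurog2, by contrast, stayed at 25929 bp with joins of 1 kb and of 5 kb. Neurod4 came to 5733 bp, still clear of its start.

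Of 14 other neural bHLH genes, 12 (85.7%) had a site over the start window, against 31.5% of protein-coding genes. A site of at least 2000 bp was found there in 11 (78.6%), against 16.1%. The median covered share of the surroundings was 34.1%, against 3.81%. The highest share was that of Olig1, at 89.2%, followed by Bhlhe23 at 78.9%. Ascl2, a trophoblast and stem cell factor, had a site of 13648 bp. Ptf1a, a determinant of pancreas and of inhibitory neurons, had one of 18148 bp, and Olig3 one of 12372 bp. Nhlh1 (6875 bp), Nhlh2 (4690 bp), Ascl4 (3364 bp), Atoh7 (3180 bp), which is needed for retinal ganglion cells, and Ascl5 (3060 bp) had narrower ones. Atoh8 and Ascl3 had none over the start.

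The dimer partners and their inhibitors are few, so their counts say little beside the 31.5% of protein-coding genes with a site over the start window. None of the 3 E protein genes (Tcf3, Tcf4 and Tcf12) had a site over the start window, although 30.8% of the surroundings of Tcf3 was covered, against 0.47% for Tcf12 and 0.09% for Tcf4. Of the 4 Id genes, whose products sequester E proteins, 1 had a site there, Id2, with 200 bp, and the covered shares of the surroundings were 1.91% for Id4, 0.725% for Id2 and 0.227% for Id3. E proteins and Id proteins are broadly expressed, unlike the proneural factors.

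The Hes and Hey repressors were mixed. Of 9, 6 (66.7%) had a site over the start window, against 31.5% of protein-coding genes. A site of at least 2000 bp was found there in 5 (55.6%), against 16.1%. That of Hey2 measured only 209 bp and covered 3.23% of the start window. Heyl (16535 bp) and Hes5 (16359 bp), both Notch effectors, had the widest, and 63.7% and 59.4% of their surroundings were covered. Hes2 had a site of 5520 bp, Hes3 one of 4248 bp and Hey1 one of 2477 bp. Hes1, Hes6 and Hes7 had none over the start.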

How the data were processed

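H3K27me3 ChIP-seq was performed on NG3 cells, a clone of iMEF cells. The authors trimmed reads with Trim Galore, aligned them to mm10 with BWA, filtered them with samtools, merged replicates with Picard and called broad peaks with MACS2. Versions, thresholds and the way peaks were combined over samples are not given in the sources used here. The deposited list gives a chromosome, start and end per site, with no counts or signal. Starts were read as counted from 0, as end minus start was never under 200 bp and often exactly that, and are printed as counted from 1.

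Sites were intersected with GENCODE M21 protein-coding genes on GRCm38.p6 in Python 3.11.15 with numpy 2.4.6 and pandas 2.3.3, and plotted with matplotlib 3.10.9. Promoter sequences came from RefSeq (GRCm38.p6), in which all 9 genes were found. The coverage functions were tested on simulated data. Shares among all protein-coding genes served as background, without a test. All 9 genes are named, together with protein-coding neighbours within 50 kb and those genes of the related lists that had a site of at least 2 kb over the start or were among the 3 highest in covered surroundings. Genes named as having no site over the start, Id2, Hey2 and Tifab were added after values were seen. The genes and lists were chosen with earlier results of these data known, and the coding sequence measure and the count of unique words were added after values were seen. The planned protein identity was not computed, and some genes that the naming rule covers are not reported here. Alternatives were joined sites, minimum widths, other windows, overlaps and position conventions.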

Additional observations from a re-analysis of the deposited data

How the results depend on the processing

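The count of genes with a site over the start window was 8 in all settings but 1, a start window of 2 kb, which gave 9 through a site of 460 bp near Neurod4. The median covered shares of the start window and of the body were 100% under every alternative tried. The median share of the surroundings, 32.8%, moved by over 1.5 times to 53.0% with the body and 20 kb around it and to 68.5% with sites closer than 5 kb joined (all protein-coding genes 2.23% and 7.89%), and lay between 22.6% and 41.1% otherwise. Of 540 values for single genes, 104 moved by more than 1.5 times, 41 of them with 5 kb joins. With sites under 1 kb removed, the body and surroundings of Neurod4 were at 0. Reads per site are unknown, so depth could not be weighed. No paired analysis was possible because sites are given without values for single libraries, which also kept replicates from being left out.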

Other observations

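Genes known as targets or followers of proneural factors were also covered, as a description with no test. Of 15 such genes, 10 (66.7%) had a site over the start window and 8 (53.3%) one of at least 2000 bp, against 31.5% and 16.1% of protein-coding genes. The median covered share of their surroundings was 12.4%, against 3.81%. Cbfa2t3, a transcriptional corepressor gene, had a site of 29072 bp and 68.2% of its surroundings covered. The Notch ligand genes Dll1 and Dll3 had sites of 6335 bp and 17614 bp, and the surroundings of Dll1 were 42.0% covered. Insm1, a factor of neuroendocrine cells, had a site of 13967 bp.

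Genes of later neuronal stages were mixed. The sites over the starts of Eomes (5364 bp) and Tbr1 (3180 bp), T-box factors of cortical neurogenesis, and of Elavl3 (7970 bp) and Elavl4 (2955 bp), neuronal RNA-binding proteins, were at least 2000 bp wide. Mfng, which encodes a glycosyltransferase acting on Notch, had none at the start although 40.7% of its surroundings was covered. Tubb3, Rnd2, Gadd45g and Cbfa2t2 had none over the start either.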
